A study of Mus musculus with 6 samples.

Results

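The small RNA sequences described here are the candidates that were found in every library of exosomes from RAW264.7 cells, a mouse macrophage line grown on titanium disks. A candidate is a sequence whose name in the deposited table begins with PC-5p- or PC-3p- in place of the name of a known microRNA, and members were chosen by their measured values, a normalized value above 0 in all 6 libraries. This gave 63 of 2171 distinct candidates, in a table of 2704 distinct sequences. Each of the 63 had at least 5 reads in each library, but a floor near 5 reads in the listing would give this by itself. The cells had been cultured in medium described as free of exosomes, on polished smooth disks (3 libraries) or on disks with a micro-/nano- surface made by sandblasting, acid etching and alkali heat treatment (3 libraries, here called micro-nano and called small-scale topography in the study). The alloy of all disks was Ti6Al4V, and the exosomes were pelleted from the supernatant by ultracentrifugation. The time on the disk is not given in the sources used here. RAW264.7 is 1 cell line. The methods say in general that experiments were done independently 3 or more times, without saying so of the sequenced libraries. Whether each library had its own culture is thus open, and the p-values describe library-to-library spread that could be technical alone.

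MicroRNAs are cut from hairpin precursors by Drosha and Dicer, and the strands of the 2 hairpin arms are called 5p and 3p. The strand that is kept sits in an Argonaute protein, which prefers a uracil at the 5′ end, and its bases 2 to 8, the seed, pair with the target. Exosomes carry such microRNAs between cells, and they also carry pieces of other RNA, such as ribosomal and transfer RNA. A name with PC therefore says that a program listed a sequence, and not that a microRNA has been shown.

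Searched letter for letter in the annotated mouse transcripts (GENCODE M21, GRCm38), 1 of the 63 candidates (1.59%) had a match in the sense direction and none in antisense. Sense matches were found for 22 of the 2108 other candidates (1.04%). Of the 189 sequences with a microRNA name and a value in all 6 libraries, 145 had one (76.7%). The authors' processing had removed reads that matched mRNA or Rfam, so a low count among candidates was partly set beforehand. The match among the 63, PC-3p-37762_76, is shown because it is the only one of them with a place in the annotation. It lies at chrM:1534-1552 (plus strand), in mt-Rnr2, the gene of the large ribosomal RNA of mitochondria, at bases 441 to 459 of its 1582. Below, the capitals mark the candidate and the small letters the 20 bases on each side (chrM:1514-1572).
PC-3p-37762_76 in mt-Rnr2: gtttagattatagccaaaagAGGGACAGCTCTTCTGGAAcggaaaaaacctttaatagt

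None of the 63 lay whole within a hairpin of the 1005 mouse microRNA hairpins of RefSeq (GRCm38.p6), while 118 of the 189 sequences with a microRNA name and a value in all 6 libraries did (62.4%). None of the 2108 other candidates did either, so this is shared by all PC names. A PC name stands in place of a known microRNA's name, so the contrast with named sequences is not independent of the naming. The nearest mouse microRNAs are shown to let the likeness be seen. PC-5p-146_13157 shares 15 bases in a row with miR-5106, whose mature form occupies chr4:44221197-44221219 (minus strand), and PC-3p-13858_238 shares 14 with miR-5119 at chr11:98262638-98262656 (plus strand). PC-3p-10870_308 shares 13 with miR-5119, bases 6 to 18. The capitals mark the shared stretch in the RefSeq sequence.
mmu-miR-5106: agguCUGUAGCUCAGUUGGcaga
mmu-miR-5119: caucuCAUCCUGGGGCUGG

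Every other candidate shared 11 bases or fewer in a row with its nearest mature mouse microRNA. A seed present among the mature mouse microRNAs stood at bases 2 to 8 of 7 of the 63 candidates (11.1%), against 15.3% of the 2108 other candidates and 70.9% of the named sequences listed in all 6 libraries. No genome, no transfer RNA set and no sequence of another organism (serum, microbes) was searched. The source of the 62 candidates without a match was therefore not tested. It is not established that they are mouse RNA, so their values and shares cannot be read as RNA of the macrophages, and their letters are not printed for that reason.

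In length, the candidates were short. Of the 63, 29 had 18 nt, the lower bound of the table, 27 had 19 nt, 4 had 20 nt, 2 had 21 nt and 1, PC-5p-146_13157, had 22 nt. Thus 88.9% had 18 or 19 nt, against 71.7% of the other candidates and 20.1% of the named sequences listed in all 6 libraries, of which 61.9% had 21 to 23 nt. The longest candidates after PC-5p-146_13157 were PC-5p-46324_60 and PC-3p-21019_151.

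Their bases leaned to guanine. Over the 63 sequences, 37.1% of the bases were G, 22.99% T, 21.97% A and 17.98% C, and 54 sequences held more G than C (85.7%). In the other candidates G made up 40.5% and A 32.0%, and in the named sequences listed in all 6 libraries G made up 29.3%. The median GC content was 55.6%, from 35% in PC-3p-24129_129 to 68.4% in PC-3p-9887_340, against 52.6% in the other candidates and 50% in the named sequences. A run of GGGG occurred in 12 candidates (19.05%), in 13.4% of the others and in 6.35% of the named sequences. The first base was T (uracil in the RNA) in 17 candidates (27.0%) and G in 21 (33.3%), whereas the named sequences began with T in 44.4% and with G in 11.6%. The last base was A in 30 candidates (47.6%), close to the 47.8% of the other candidates and above the 24.3% of the named sequences. These shares are descriptions of the lists and were not tested.

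The ending CCA, which mature transfer RNAs carry at their 3′ end, closed 5 of the 63 candidates (7.94%). It closed 1.28% of the other candidates and 1.06% of the named sequences listed in all 6 libraries. The 5 were PC-5p-1330_2096, PC-5p-5479_623, PC-3p-2861_1125, PC-3p-21019_151 and PC-5p-22753_138, of which 3 bear the label 5p and 2 the label 3p. The authors' processing had taken out reads that it recognised as ribosomal or transfer RNA, and whether these 5 are pieces of transfer RNA was not tested.

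By label, 31 candidates were 5p and 32 were 3p, near the even split of the other candidates (50.8% 5p). The median length was 19 nt and the median GC content 55.6% under both labels, and the last base was A in 15 of each. The 5p candidates held 77.0% of the summed mean values of the 63, most of it through PC-5p-146_13157, and the median of the mean values was 48.4 for 5p and 59.6 for 3p.

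Several candidates overlapped each other. Of the 63, 17 shared at least 10 bases in a row with another candidate of the set, in 10 pairs, and in 7 of these pairs the end of one was the start of the other. Joined end to start, PC-5p-23614_132, PC-3p-13093_254 and PC-3p-27033_114 gave a single stretch of 28 bases, longer than the 26 nt that the table allows. PC-5p-6070_563 with PC-5p-17297_187 gave 27 bases, PC-5p-13380_248 with PC-5p-5479_623 gave 26 and PC-5p-25621_121 with PC-3p-6231_550 gave 24. PC-5p-46320_60 and PC-3p-1857_1587 shared 17 of their 18 bases, shifted by 1 base, and PC-5p-6541_524 and PC-5p-1181_2285 shared 15. Of the 7 pairs joined at their ends, 3 were made of a 5p and a 3p sequence. Which hairpin each label refers to was not examined. Because such candidates share sequence, they are not independent observations.

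With any other sequence of the table, a stretch of 15 bases was shared by 12 of the 63 candidates (19.05%), by 2.28% of the other candidates and by 41.3% of the named sequences listed in all 6 libraries, many of which are length variants of 1 microRNA. PC-5p-146_13157 belonged in this way with 4 sequences named after miR-5106 and 1 other candidate. The most abundant of these partners, mmu-miR-5106_R-4_1ss1AG, had a mean normalized value of 121.5, against 5857 for PC-5p-146_13157. PC-3p-10870_308 belonged with 4 sequences named after miR-5119, and PC-3p-13858_238 with mmu-miR-5119_R-1_1ss5TG, whose mean was 97.8. PC-5p-22753_138 belonged with 2 candidates outside the set, and PC-5p-24844_125 and PC-3p-12505_266 with 1 each. The remaining 6 formed 3 pairs within the set, led by PC-5p-1181_2285, PC-3p-1857_1587 and PC-3p-13093_254.

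In abundance, 1 sequence stood above all others of the set. PC-5p-146_13157 had normalized values of 5303, 7256 and 7115 in the micro-nano libraries and of 5055, 3982 and 6429 in the smooth ones, each in the order of replicates 1, 2 and 3, as in all such lists here. It ranked 6 among all 2704 sequences by its mean and held 40.4% of the summed means of the 63. The ranges of the disks overlapped, since smooth replicate 3 lay above micro-nano replicate 1. Its log2 fold change, micro-nano over smooth, was 0.36 (standard error 0.26, adjusted p = 0.823 from limma).

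After it came PC-5p-588_3979, ranked 25 in the table, with 1525, 1174 and 1612 in the micro-nano libraries and 728, 829 and 1764 in the smooth ones. PC-5p-684_3577, ranked 27, had 914, 1333 and 1376 on micro-nano disks and 816, 670.2 and 1955 on smooth disks. Both were highest in smooth replicate 3 and lowest in another smooth library. No other candidate had a mean over 1000. PC-5p-1181_2285 had 833, 519 and 467 on micro-nano disks and 354, 245 and 703 on smooth disks. PC-3p-1857_1587 had 759.9, 297 and 598 on micro-nano disks and 401, 387 and 566 on smooth disks. In both, smooth replicate 3 lay within the micro-nano range.

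The next by mean were PC-3p-1222_2224 at 362, PC-3p-3333_986 at 346, PC-5p-1330_2096 at 325, PC-5p-5479_623 at 276, PC-3p-2861_1125 at 272, PC-5p-3677_902 at 268 and PC-3p-2722_1170 at 209.7. In total 23 candidates had a mean of at least 100, and the 12 most abundant held 78.6% of the summed means. The median of the 63 means was 51.0, against 104 for the named sequences listed in all 6 libraries and 1.29 for the other candidates. The contrast with the other candidates follows from the rule of choice. Of those, 1937 were listed in only 1 library, so zeros enter their means. The least abundant was PC-5p-24946_125, with a mean of 10.7. The mitochondrial piece PC-3p-37762_76 had 81.0, 21.7 and 75.7 on micro-nano disks and 15.7, 28.9 and 72.3 on smooth disks, so its groups overlapped.

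At the edge of the choice, PC-5p-52693_51, PC-5p-52460_51, PC-3p-24808_125 and PC-5p-24844_125 had 5 reads in their lowest library, which was smooth replicate 3 for the first and micro-nano replicate 2 for the rest. Outside it, 24 candidates were listed in 5 of the 6 libraries. The most abundant of them, PC-3p-17776_181, had a mean of 71.7 with 0 in micro-nano replicate 1, and PC-3p-26687_116 had a mean of 44.4 with 0 in micro-nano replicate 2. The missing library was micro-nano replicate 2 in 15 of the 24, where 5 reads are worth a value of 7.77, the highest of the 6 libraries. Where listed, none of the 24 had a value worth under 5 reads, so a 0 may stand for few reads and not for absence.

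Together the 63 candidates held 7.79%, 5.37% and 5.87% of the normalized total in micro-nano replicates 1 to 3. In smooth replicates 1 to 3 they held 4.14%, 3.44% and 7.72%. The means were 6.34% ± 1.27 (SD, n = 3) on micro-nano disks and 5.10% ± 2.30 (SD, n = 3) on smooth disks, and the groups overlapped, because smooth replicate 3 lay above 2 of the micro-nano libraries. The smooth mean was 5.58% without smooth replicate 1, 5.93% without replicate 2 and 3.79% without replicate 3. The micro-nano mean was 5.62%, 6.83% and 6.58% without micro-nano replicates 1, 2 and 3. The 63 made up most of what the PC names held, 69.2% to 83.5% of the candidates' total in a library. Without PC-5p-146_13157 the shares were 3.79% ± 1.31 and 3.10% ± 1.63 (SD, n = 3 each).

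The libraries also differed in depth. The depth, in reads recovered from the steps of the values, was 163845, 180372 and 264828 in the micro-nano libraries and 329805, 604081 and 194510 in the smooth ones. The 2 libraries with the highest shares, micro-nano replicate 1 and smooth replicate 3, were the shallowest and the third shallowest, and the library with the lowest share, smooth replicate 2, was the deepest. The order was not kept throughout, since micro-nano replicate 2, the second shallowest, had a lower share than the deeper micro-nano replicate 3. In reads, the candidates summed to 12758, 9690 and 15555 in the micro-nano libraries and to 13666, 20789 and 15018 in the smooth ones. Sequences of 18 or 19 nt that carry a microRNA name held 5.20%, 2.60% and 3.68% of the micro-nano totals and 2.78%, 3.23% and 4.81% of the smooth totals. These were highest in the same 2 libraries as the candidates' shares, but lowest in micro-nano replicate 2 and not in smooth replicate 2. The part of depth or of RNA quality in the candidates' shares was not tested.

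Among the libraries, the candidates were high or low in particular ones of both disks. Their highest value was in micro-nano replicate 1 for 26, in smooth replicate 3 for 19, in micro-nano replicate 3 for 11, in smooth replicate 1 for 4, in micro-nano replicate 2 for 3 and in smooth replicate 2 for none. Their lowest was in smooth replicate 2 for 24 and in micro-nano replicate 2 for 17. Relative to each candidate's own mean, the median log2 value was 0.44, -0.25 and 0.02 in the micro-nano libraries and -0.37, -0.62 and 0.32 in the smooth ones. For the named sequences listed in all 6 libraries the same medians lay between -0.17 and 0.09. Smooth replicate 3 was above the other 2 smooth libraries in 49 of the 63 candidates (77.8%) and in 21.7% of those named sequences.

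In micro-nano replicate 2, a subset of candidates was low. The value there was under 50% of the lower of the other 2 micro-nano libraries in 18 of the 63 (28.6%), against 7.94% of the named sequences listed in all 6 libraries. A read was worth most in this library (1.55), and the named sequences were more abundant, so both shares are not for equal counts. The low values below rest on few reads, such as 6 for PC-3p-16830_192 and 5 for PC-3p-24808_125. PC-3p-16830_192 had 81.0, 9.32 and 103 on micro-nano disks and 45.4, 47.5 and 62.7 on smooth disks. PC-3p-24808_125 had 77.2, 7.77 and 44.1 on micro-nano disks and 42.9, 39.1 and 49.4 on smooth disks. In both, micro-nano replicate 2 was the lowest of the 6 libraries, and it was also the lowest for the 3 candidates that join to 28 bases. PC-5p-23614_132 had 61.7, 10.9 and 57.8 on micro-nano disks and 28.9, 42.9 and 92.8 on smooth disks, PC-3p-13093_254 had 81.0, 17.1 and 118 and then 56.1, 65.2 and 83.2, and PC-3p-27033_114 had 57.9, 9.32 and 37.8 and then 13.2, 23.8 and 22.9. By contrast PC-5p-13380_248 was highest there, at 52.7, 118 and 29.4 on micro-nano disks, with 27.2, 16.3 and 42.2 on smooth disks. This library and these candidates were singled out after their values were seen.

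The ratio of the highest to the lowest library had a median of 3.51 over the 63 candidates and of 2.18 over the named sequences listed in all 6 libraries. The median SD of log2(value + 1) within a disk was 0.69 and 0.43 in the same lists. The named sequences were also more abundant, so these spreads are not for equal depth. PC-5p-146_13157 was the steadiest of the 63, with a ratio of 1.82, and the ratio was highest, 11.0, in PC-3p-16830_192 and PC-3p-28486_107.

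The disks were compared with limma on log2(value + 1) over 536 distinct sequences, those with a summed value of 20 or more, and all 63 candidates passed that filter. No candidate and no other sequence had an adjusted p under 0.05 (0.00% of those tested, smallest adjusted p = 0.823 from limma). At an unadjusted p under 0.05 there were none of the 63 candidates, against 12 of the 536 sequences (2.24%). Of those 12, 9 were among the 189 named sequences listed in all 6 libraries. The log2 difference, micro-nano minus smooth, was above 0 in 44 candidates and below 0 in 19, with a median of 0.28, from -0.81 to 1.34, beside a median standard error of 0.56. Of all 536 sequences, 271 were positive with a median of 0.01, and of the 189 named sequences listed in all 6 libraries 80 were positive with a median of -0.05. The candidates' median was 0.04 without smooth replicate 2, with 37 positive, and 0.57 without smooth replicate 3, with 51 positive. It was 0.16 without micro-nano replicate 1 and 0.45 without micro-nano replicate 2.

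In 4 of the 63 candidates the values of the disks did not overlap (6.35%), close to the 6.90% of all sequences tested. Of the named sequences listed in all 6 libraries, 22 of 189 did not overlap (11.6%), 5 higher on micro-nano and 17 on smooth disks. Of the 4 candidates, 3 were higher on micro-nano disks, a direction found in 1.87% of all sequences, and 1 was higher on smooth disks, a direction found in 5.04%. PC-3p-40755_70, a sequence of 18 nt, had 52.7, 35.7 and 41.0 on micro-nano disks and 16.5, 13.5 and 19.3 on smooth disks. Its fold change on the log2 scale was 1.34 with a standard error of 0.66 (limma, unadjusted p = 0.0529), and from 1.18 to 1.46 with 1 library left out. Its unadjusted limma p ran from 0.0176 with no trend to 0.124 without micro-nano replicate 1. The study lists PC-3p-40755_70 among its upregulated sequences, by a p-value for which it states no adjustment. PC-3p-37394_77 had 20.6, 10.9 and 19.97 on micro-nano disks and 5.78, 10.3 and 7.23 on smooth disks, where its closest values were 7 reads in micro-nano replicate 2 and 22 reads in smooth replicate 2. PC-3p-33383_88 had 32.1, 14.0 and 12.6 on micro-nano disks and 12.4, 8.86 and 9.64 on smooth disks, so its closest values were parted by less than 1 read. PC-5p-46324_60 had 16.7, 12.4 and 11.6 on micro-nano disks and 18.99, 21.4 and 34.9 on smooth disks. The exact permutation test, two-sided, gave p = 0.1 for each of these 4, the smallest p that 3 libraries against 3 allow.

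With libraries scaled to the same total, 2 of the 4 still did not overlap, PC-3p-40755_70 and PC-3p-37394_77. In that fit the share of all sequences tested was lower as well, at 4.66% (25 of 536). With 1 library left out, the number of candidates whose groups did not overlap rose to 9 of 63 without micro-nano replicate 1, to 17 without micro-nano replicate 2 and to 23 without smooth replicate 3. The same settings gave 13.8%, 21.5% and 22.5% of all sequences tested. A smaller group is parted from the other more easily.

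The smallest unadjusted p-values after PC-3p-40755_70 belonged to PC-5p-2769_1154, PC-5p-13380_248, PC-5p-1181_2285 and PC-5p-588_3979. PC-5p-2769_1154 had 321, 168 and 239 on micro-nano disks and 105, 112 and 248 on smooth disks, which is 0.71 on the log2 scale with a standard error of 0.36 (limma, unadjusted p = 0.0621). The 3 others had 1.07 (standard error 0.60), 0.57 (standard error 0.33) and 0.48 (standard error 0.29). In each of these 4, smooth replicates 1 and 2 lay below all micro-nano libraries, while smooth replicate 3 lay within or above the micro-nano range. Without smooth replicate 3, 8 candidates had an unadjusted p under 0.05, namely PC-5p-588_3979, PC-5p-2769_1154, PC-5p-1181_2285, PC-5p-17297_187, PC-5p-684_3577, PC-5p-3677_902, PC-3p-2722_1170 and PC-3p-40755_70, beside 30 of all 524 sequences tested in that fit. Without micro-nano replicate 2 there were 5, beside 31 of 526 sequences, and none had an adjusted p under 0.05 in either fit.

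For the 12 most abundant candidates the log2 fold changes lay between -0.04 in PC-5p-1330_2096 and 0.57 in PC-5p-1181_2285, with standard errors of 0.26 to 0.39. The 95% interval was from -0.17 to 0.89 for PC-5p-146_13157 and from -0.68 to 0.60 for PC-5p-1330_2096. Both intervals include 0, and true differences inside them are compatible with these libraries. For the mitochondrial PC-3p-37762_76 the log2 fold change was 0.66 (standard error 0.62), and it ran from 0.16 without smooth replicate 1 to 1.26 without micro-nano replicate 2. The lowest values were those of PC-5p-46324_60 at -0.81 (standard error 0.80) and PC-5p-24844_125 at -0.80 (standard error 0.82). Of the 3 candidates that join to 28 bases, PC-5p-23614_132 had -0.50, PC-3p-13093_254 had -0.29 and PC-3p-27033_114 had 0.50 on the log2 scale, each with a standard error of 0.55 to 0.76. The sign of PC-3p-13093_254 rested on micro-nano replicate 2, without which it was 0.53, and its mean normalized value was 71.9 on micro-nano disks and 68.2 on smooth disks.

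MicroRNAs known from myeloid cells were looked up, although their presence alone cannot establish the labelled cell type. Sequences of miR-21-5p, miR-142-5p, miR-155-5p and miR-146a-5p were listed in all 6 libraries and miR-223-3p in 4. Of those known from liver and red cells, miR-122-5p and miR-486 were listed in all 6 and miR-451 in 5. The mean normalized value of miR-122-5p was 3315 on micro-nano disks and 2759 on smooth disks, above that of every myeloid microRNA checked except miR-21-5p, and for miR-142-5p the means were 117 and 163. Each of these values is that of 1 listed sequence, such as rno-miR-122-5p_R-1, and not a sum over variants. Of the muscle microRNAs, miR-1 was not listed. For miR-133a and miR-206 the sequences found were hsa-mir-133a-2-p3_1ss9GT, in 3 libraries, and rno-mir-206-p3_1ss9TG, in 1. These names give a hairpin arm with a changed base, and not the mature miR-133a or miR-206. The part of RNA from serum or other cells in the candidates was not tested.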

How the data were processed

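Small RNA of the exosomes was sequenced (TruSeq small RNA kit, HiSeq), and the authors trimmed the 3′ adapter, kept inserts of 18 to 26 nt, removed reads that matched mRNA, Rfam or RepBase and named sequences with ACGT101-miR. The table of 2731 rows was deposited with a normalized signal per sequence and library. Its scaling, program version, microRNA release and genome build were not given in the sources used here. Values fell on steps taken as single reads, and 89.2% to 93.8% of those listed were whole to within 0.02 reads, so the signal was not treated as counts and depths are approximate.

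Rows of equal sequence and equal values were merged. Groups came from the labels. The disks were compared with limma 3.58.1 in R 4.3.3 (mean-variance trend, two-sided, Benjamini-Hochberg over all 536 sequences), after a filter at a summed value of 20 and on log2(value + 1), which understates changes of low sequences. The code was tested on simulated data. Features and exact matches were computed in Python 3.11.15 (pandas 2.3.3, NumPy 2.4.6, SciPy 1.17.1). Candidates were named if among the 12 most abundant, the 5 of smallest p, the non-overlapping, the annotated, or the leads of families sharing 15 bases. The others named, as extremes, edge cases, overlaps, ends or library patterns, were picked after their values were seen. The members and lists were chosen with earlier results of these data known. Alternatives were other pseudocounts, filters, scalings, a replicate block, rows as deposited, no trend and each library left out.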

Additional observations from a re-analysis of the deposited data

How the results depend on the processing

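No candidate and no other sequence had an adjusted p under 0.05 in limma in any of the 15 other fits per candidate. Candidates at an unadjusted p under 0.05 numbered 1, in place of 0, in several fits. With no filter this was PC-5p-146_13157. It was PC-3p-40755_70 with a pseudocount of 5, with sequences listed in at least 3 libraries, with median-ratio scaling, with rows as deposited and with no trend. With 1 library left out, such candidates numbered 0 to 8 (8 without smooth replicate 3, 5 without micro-nano replicate 2, 1 without micro-nano replicate 3). Sequences at that level numbered 36 of 2704 tested with no filter, against 12 of 536. With 1 library left out they numbered from 6 of 531 (without smooth replicate 1) to 31 of 526 (without micro-nano replicate 2). Candidates whose groups did not overlap numbered 2 with equal totals, against 4, beside 4.66% of all sequences tested, against 6.90%. With 1 library left out they numbered 4 to 23, beside 9.53% to 22.5% of all sequences tested. The micro-nano share was 3.79% without the most abundant candidate, against 6.34%, since that candidate itself held 2.55%. The cause of the other shifts was not tested.

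The replicate block gave 1 candidate and 18 sequences at an unadjusted p under 0.05. The replicate numbers share no stated source, and the same-numbered deviations correlated at -0.03, 0.10 and 0.02 over the sequences tested, so the numbers were not taken as pairs. Not every library correlated best with its own number.

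Of 375 alternative values for the 25 candidates named by rule, 13 had the opposite sign, in 8 candidates, none past the adjusted threshold. PC-5p-1330_2096 was at 0.0033 with equal totals, against -0.04. With 1 library left out, the log2 fold changes ran from -0.33 to 0.18 in PC-5p-1330_2096, -0.088 to 0.68 in PC-5p-684_3577, -0.078 to 0.60 in PC-3p-1857_1587, -0.36 to 0.57 in PC-3p-1222_2224, -0.23 to 0.52 in PC-3p-2861_1125, -0.026 to 0.89 in PC-3p-2722_1170, -0.024 to 0.73 in PC-3p-12505_266 and -0.83 to 0.53 in PC-3p-13093_254. The number of candidates listed in every library kept was 63 to 78, the latter without micro-nano replicate 2. Depth limits the low candidates most, since 5 reads were worth 2.33 to 7.77 normalized units.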
